A study of Mus musculus with 12 samples.

Results

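Voltage-gated calcium channels open when a neuron depolarises and let calcium enter the cell, where it triggers transmitter release, shapes firing and drives signaling. Each channel has a pore-forming alpha-1 subunit, which sets the channel type. High-voltage-activated channels (P/Q, N, L and R types) also carry a cytosolic beta subunit and an extracellular alpha-2-delta subunit, while low-voltage-activated T-type channels can work with the pore subunit alone. P/Q-type channels carry most of the calcium current of Purkinje cells, the output neurons of the cerebellar cortex, and mice with mutations in the P/Q pore gene, in the beta-4 gene or in the alpha-2-delta-2 gene are known for ataxia and seizures.

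The 10 genes described here were chosen by symbol: 8 pore subunit genes, namely Cacna1a (P/Q type), Cacna1b (N type), Cacna1c and Cacna1d (L type), Cacna1e (R type) and Cacna1g, Cacna1h and Cacna1i (T type), and 2 auxiliary subunit genes, Cacnb4 (beta-4) and Cacna2d2 (alpha-2-delta-2). All 10 were matched by GENCODE name among the 54752 genes counted, and all 10 passed the filter on low counts in every comparison. Their expression was measured by sequencing poly(A) RNA from cerebellar cortex of 12 wild-type male C57BL6J/FVB F1 hybrid mice aged 12 weeks. Of these mice, 4 were fed ad libitum (AL), 4 were on dietary restriction (DR), with daily portions smaller than an AL mouse eats, and 4 were on a ketogenic diet (KD), whose composition was not given in the sources used here. For AL and DR mice the study's methods add that the dissected tissue held no cerebellar nuclei and that RNA samples were picked by quality. Tissue of these mice was taken early in the dark period, before the DR mice had their meal of that day. Restriction and the fast since the last meal therefore cannot be told apart. For KD mice the details of dissection, RNA quality and time of day were not given in the sources used here.

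The alpha interaction domain, the segment between the first and second repeats of the pore subunit to which a beta subunit such as beta-4 binds, was sought by its conserved pattern of amino acids in the coding transcripts of GENCODE vM21 (build GRCm38). The pattern was found in transcripts of Cacna1a (3 of 3), Cacna1b (5 of 10), Cacna1c (22 of 22), Cacna1d (6 of 7) and Cacna1e (3 of 4). It was found in 0 of the 11 transcripts of Cacna1g, 0 of the 6 of Cacna1h and 0 of the 5 of Cacna1i, which says only that the pattern is not in these sequences. Among 21877 genes with a coding transcript, 7 held it, the other two being the L-type genes Cacna1f and Cacna1s. The 54 coding bases of the segment are shown 5′ to 3′ because they show how the members differ in the bases that encode it. Capitals mark bases that differ from Cacna1a.
Cacna1a: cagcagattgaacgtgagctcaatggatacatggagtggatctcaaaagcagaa
Cacna1b: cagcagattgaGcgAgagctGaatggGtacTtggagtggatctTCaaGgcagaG
Cacna1c: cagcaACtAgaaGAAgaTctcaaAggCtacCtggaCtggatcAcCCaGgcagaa
Cacna1d: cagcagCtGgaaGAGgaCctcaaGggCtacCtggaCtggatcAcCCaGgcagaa
Cacna1e: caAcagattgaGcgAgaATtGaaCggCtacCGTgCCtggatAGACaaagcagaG
These bases lie in exons 8 and 9 of Cacna1a (chr8:84536125-84536403, plus strand), exons 8 and 9 of Cacna1b (chr2:24719100-24719992, minus strand) and exons 8 and 9 of Cacna1e (chr1:154488837-154493353, minus strand). In the L-type genes they lie within exon 9, at chr6:118734906-118734959 in Cacna1c and chr14:30142600-30142653 in Cacna1d, both on the minus strand. Identity of bases to the Cacna1a segment was 83.3% in Cacna1b, 74.1% in Cacna1d, 72.2% in Cacna1c and 66.7% in Cacna1e. The R-type gene was thus the farthest of these 5 by bases. Some base differences leave the amino acid unchanged, so this order does not rank the peptides that beta subunits bind.

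The 12 libraries held 31712084 to 40798644 reads assigned to genes (median 36674269). Levels are given as CPM, the counts of a gene scaled to a common library size, with TMM normalization over the 12 libraries, and levels of different genes are compared as CPM per kilobase of counted length. AL replicate 3 stood apart from the other AL mice on the first principal component of all genes (17.3% of the variance), with a score of 4.11 against -21.5 to -9.34, and on the second (13.8%), with -23.7 against 5.16 to 11.4. Other mice stood apart too. KD replicate 3 was at -24.4 on the first component against -5.75 to -2.71 for the other KD mice, and at 6.98 on the second against -17.2 to -9.17. DR replicate 1 was at 26.1 on the second component against -9.39 to 13.6 for the other DR mice, and its counts differed most from theirs, with a chi-square per gene of 10.7 to 11.6 against 5.04 to 7.58 among the other DR mice. Fold changes of the called members are therefore given with and without these 3 mice, as are those of the members for which AL replicate 3 was far from the other AL mice. Markers of the labelled tissue were abundant. The 8 Purkinje cell markers summed to between 6908 and 8778 CPM and the 8 granule cell markers to between 5837 and 6356 CPM in every library, with no marker of these 2 lists at 0 counts.

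The subunit mRNAs differed widely in level. Cacna1a was the most abundant at 64.6 ± 4.27 CPM per kilobase (SD, n = 12 libraries), followed by the T-type gene Cacna1g at 42.7 ± 2.84 CPM per kilobase. The auxiliary subunit genes came next, Cacnb4 at 37.3 ± 1.98 and Cacna2d2 at 33.9 ± 1.96 CPM per kilobase. These auxiliary genes were thus at levels between those of the main T-type gene and the remaining pore genes. The place of Cacnb4 next to Cacna1g is uncertain, since 16% of its exonic bases overlap another gene. How reads in such bases were counted was not given in the sources used here. Cacna1i was at 14.2 ± 1.35, Cacna1e at 11.1 ± 1.89 and Cacna1b at 10.9 ± 0.385 CPM per kilobase. The L-type genes were lower, Cacna1c at 7.75 ± 0.639 and Cacna1d at 5.37 ± 0.419 CPM per kilobase. Cacna1h, the third T-type gene, was at 0.305 ± 0.0411 CPM per kilobase, with only 85 to 121 reads per library.

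Some neighbours in this order overlapped. The order of Cacna1e and Cacna1b turned with diet per kilobase only. In CPM, Cacna1e (211 to 344) was above Cacna1b (103 to 116) in every library. Per kilobase, Cacna1e was above Cacna1b in 4 of 4 AL mice and 3 of 4 KD mice. It was below Cacna1b in 4 of 4 DR mice, at 8.38 to 9.01 against 10.4 to 11.4 CPM per kilobase. Their order by mean per kilobase also turned where AL replicate 2, 3 or 4 or KD replicate 1 or 3 was left out. The ranges over the 12 libraries also overlapped between Cacna1g and Cacnb4, which kept their order in 10 libraries. Cacnb4 and Cacna2d2 overlapped in range but kept their order in 12 of 12 libraries, as did Cacna1i and Cacna1e. The other neighbours did not overlap. Without division by length, the order changed to Cacna1a, Cacna1g, Cacnb4, Cacna1e, Cacna2d2, Cacna1c, Cacna1i, Cacna1b, Cacna1d and Cacna1h, since the counted length of Cacna1e (25228 bases) is the longest of the 10 and that of Cacna2d2 (7947 bases) the shortest.

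**Figure D1:**
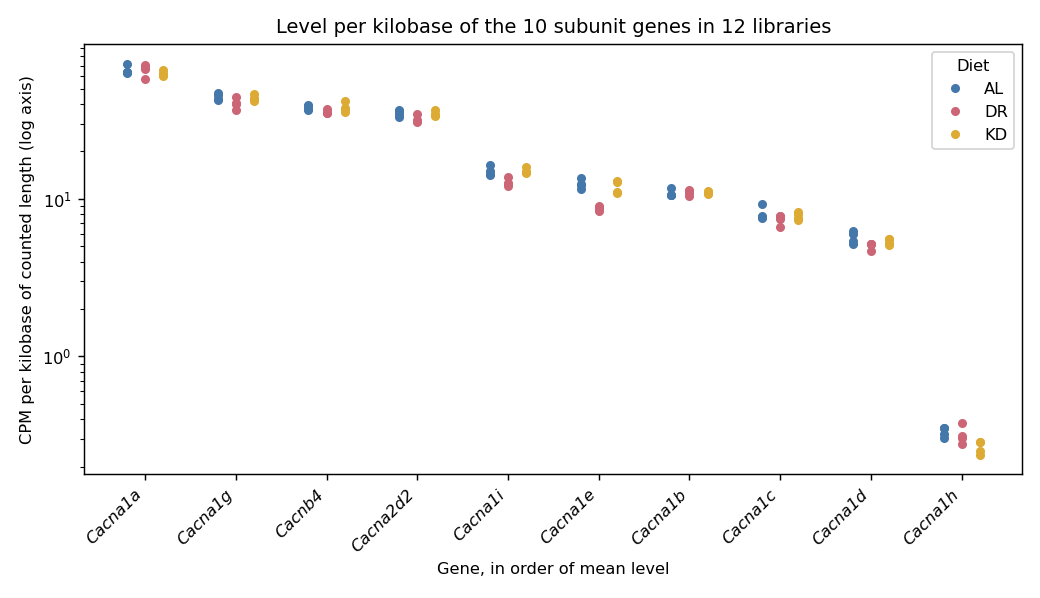
Level of the 10 subunit genes in CPM per kilobase of counted length (log axis), 1 point per library, coloured by diet, in order of the mean over 12 libraries. Cacna1a lies above all other members in every library, Cacna1e overlaps Cacna1b, and Cacna1h lies far below the rest.

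The first question was whether DR changed the expression of these genes relative to AL feeding. The R-type pore gene Cacna1e was 29.9% lower on DR, the T-type pore gene Cacna1i was 15.6% lower, and the other 8 members did not pass the test. A gene was called where its p from the quasi-likelihood test of edgeR, adjusted by the Benjamini-Hochberg method across the 19052 genes tested, was under 0.05. Of the 10 members 2 were called, both lower on DR, while of all genes 3.06% were called, 1.74% lower and 1.32% higher. Without adjustment 5 members had a p under 0.05 by edgeR, all lower (Cacna1e, Cacna1i, Cacna1d, Cacna2d2 and Cacna1g), against 18% of all genes, of which 8.98% lower and 9.02% higher. Fold changes were below 0 for 9 of the 10 members, against 49% of all genes, and the median log2 fold change was -0.13 for the members and 0.0036 for all genes. In a dissected tissue, fewer cells of a type and less RNA per cell cannot be told apart.

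Cacna1e (ENSMUSG00000004110.16, chromosome 1 of GRCm38.p6, 154390731 to 154884501, minus strand) was at 291, 311, 344 and 312 CPM in AL replicates 1 to 4. In DR replicates 1 to 4 it was at 224, 211, 219 and 227 CPM. Every DR mouse lay below every AL mouse, and the DR mice were close together, with a mean of 220 ± 6.91 CPM against 314 ± 21.8 CPM in AL mice (SD, n = 4). The log2 fold change was -0.51 (standard error 0.051, 95% confidence interval -0.62 to -0.40), a change of -29.9% with an adjusted p of 0.000163 by edgeR. Among the 19052 genes tested this was the 6th smallest p. With each mouse left out in turn Cacna1e was called in 8 of 8 fits, with adjusted p from 7.21e-05 to 0.00127, and the log2 fold change was -0.47 without AL replicate 3 and -0.52 without DR replicate 1. The exons of Cacna1e share no bases with those of another gene in the annotation.

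Cacna1i (ENSMUSG00000022416.15, chromosome 15, 80287238 to 80398279, plus strand), whose slowly inactivating T-type channel supports burst firing, was at 148, 141, 162 and 142 CPM in AL replicates 1 to 4. In DR replicates 1 to 4 it was at 119, 135, 124 and 123 CPM. The diets did not overlap, although the highest DR mouse, at 135 CPM, came within reach of the lowest AL mouse, at 141 CPM. Its log2 fold change was -0.24 (standard error 0.054, 95% confidence interval -0.36 to -0.13, adjusted p = 0.0262 by edgeR). This call depended on single mice. Leaving out each mouse in turn, 4 of the 8 fits kept the call, which was lost without AL replicate 1 (adjusted p = 0.0806), DR replicate 1 (0.0769), DR replicate 3 (0.0722) or DR replicate 4 (0.0704), with log2 fold changes from -0.28 to -0.20 over the 8 fits. The log2 fold change was -0.20 without AL replicate 3 (adjusted p = 0.0424 by edgeR) and -0.21 without DR replicate 1.

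AL and DR did not overlap in these 2 members, both lower on DR, while of all genes 5.64% had every DR mouse below every AL mouse and 5.3% had every DR mouse above. The other T-type genes did not pass. Cacna1g (chromosome 11, 94408391 to 94474198), the T-type gene typical of Purkinje cells, was at 474, 439, 463 and 430 CPM in AL replicates 1 to 4 and at 373, 409, 405 and 446 CPM in DR replicates 1 to 4. DR replicates 1 to 3 lay below all AL mice, and DR replicate 4 lay within the AL range. The difference of -0.14 on the log2 scale (95% confidence interval -0.26 to -0.03) had an adjusted p of 0.181 by edgeR. Cacna1h (chromosome 17, 25374285 to 25433783) averaged 3.24 ± 0.237 CPM in AL mice and 3.11 ± 0.406 CPM in DR mice (SD, n = 4). Over the libraries of all diets Cacna1h had 85 to 121 reads. Its interval was wide, from -0.34 to 0.22 on the log2 scale, and includes the change of Cacna1i.

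The P/Q-type and N-type pore genes, whose channels trigger most fast transmitter release, showed the smallest differences among the members. Cacna1a (chromosome 8, 84388440 to 84640246) was at 732, 721, 824 and 729 CPM in AL replicates 1 to 4 and at 656, 758, 810 and 772 CPM in DR replicates 1 to 4. The diets overlapped, with AL replicate 3 the highest and DR replicate 1 the lowest of these 8 mice. Its log2 fold change of -0.005 had a 95% confidence interval of -0.14 to 0.13, which does not include the change of Cacna1e, and it turned to 0.042 without AL replicate 3 and 0.057 without DR replicate 1. Cacna1b (chromosome 2, 24603887 to 24763152) averaged 108 ± 5.39 CPM in AL mice and 109 ± 4.41 CPM in DR mice (SD, n = 4). The log2 fold change was 0.01 with an interval of -0.09 to 0.11, and 0.05 without AL replicate 3, which at 116 CPM lay above the 105 to 106 CPM of the other AL mice.

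Both L-type genes had fold changes below 0 that did not pass the adjustment. Cacna1d (chromosome 14, 30039939 to 30491455), whose channel opens at lower voltages than the other neuronal L-type channel, was at 68.4, 75.7, 78.5 and 65.5 CPM in AL replicates 1 to 4. In DR replicates 1 to 4 it was at 59.0, 64.8, 65.0 and 65.6 CPM, so that only the highest DR mouse reached the lowest AL mouse. Its log2 fold change was -0.18 (95% confidence interval -0.31 to -0.05, adjusted p = 0.124 by edgeR, unadjusted p = 0.00865). Cacna1c (chromosome 6, 118587240 to 119196418) had a log2 fold change of -0.13 (-0.28 to 0.02, adjusted p = 0.343), and -0.055 without AL replicate 3, a mouse with 198 CPM where the rest of the AL group had 160 to 165 CPM.

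The auxiliary subunits did not pass either. Cacna2d2 (chromosome 9, 107399612 to 107529343), whose protein raises the number of channels at the surface, was at 289, 276, 291 and 263 CPM in AL replicates 1 to 4 and at 249, 246, 251 and 273 CPM in DR replicates 1 to 4. As for Cacna1g, DR replicate 4 was the only DR mouse within the AL range. The log2 fold change was -0.13 (95% confidence interval -0.24 to -0.03, adjusted p = 0.154 by edgeR). Cacnb4 (chromosome 2, 52428320 to 52676831), the main beta subunit gene of the cerebellum, averaged 341 ± 11.6 CPM in AL mice and 321 ± 9.76 CPM in DR mice (SD, n = 4), and its log2 fold change was -0.09 (-0.18 to 0.00, adjusted p = 0.302). Its value is uncertain, because 16% of its exonic bases overlap A430018G15Rik on the opposite strand and the library kit does not keep strand. A430018G15Rik itself had 6 to 21 reads per library. With the counting settings not given, this does not show how many reads in the shared bases, if any, were left uncounted. For the other members with any overlap (Cacna1a, Cacna1d, Cacna1h and Cacna2d2) the overlap was at most 4.67%.

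**Figure D2:**
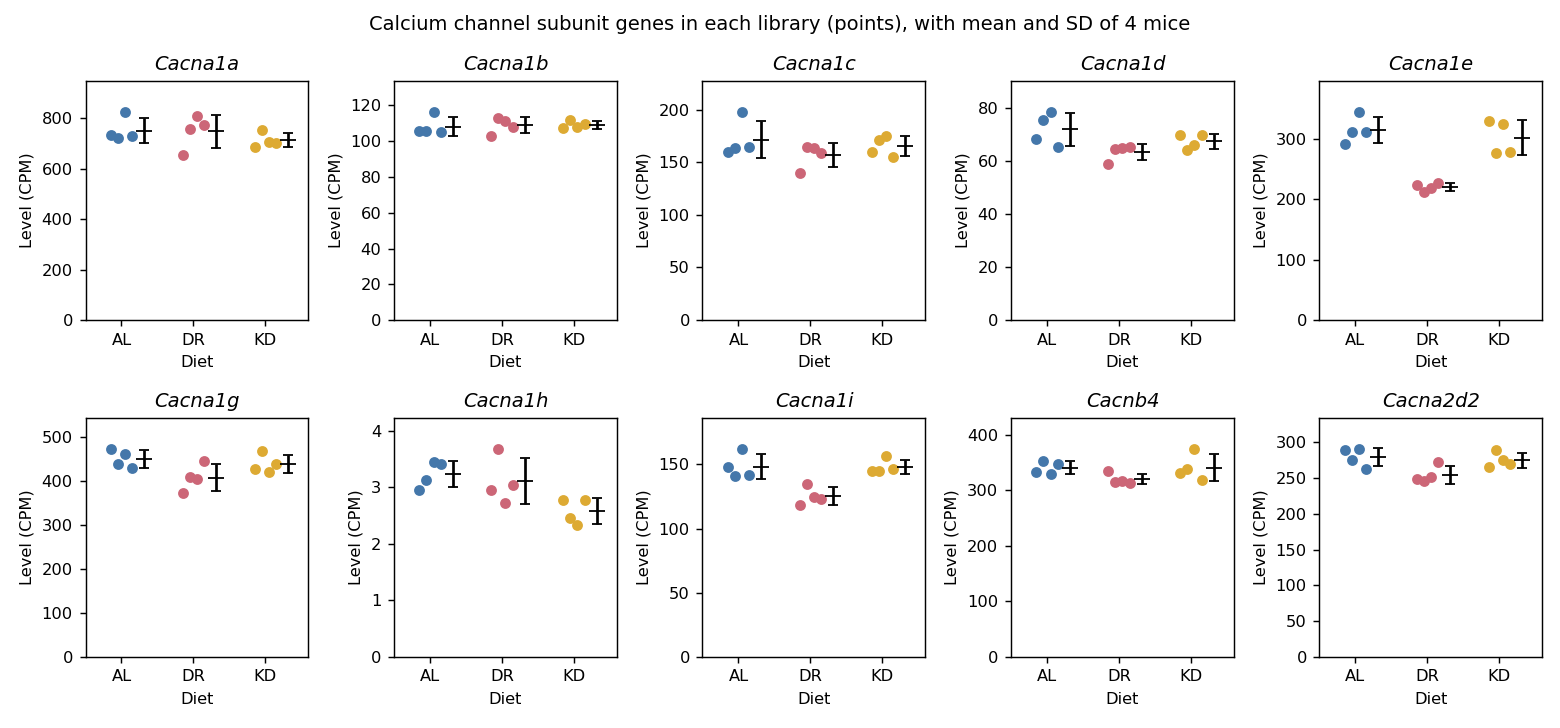
Level in CPM of the 10 subunit genes in each library, with the mean and SD of the 4 mice of each diet beside the points and every axis starting at 0. The 4 DR points of Cacna1e, at 211 to 227 CPM, and of Cacna1i, at 119 to 135 CPM, lie below all AL and KD points, while the diets overlap for Cacna1a and Cacna1b.

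The KD mice were then compared with AL mice, with the same AL mice that served for DR, so both comparisons share them. Of 19036 genes tested by edgeR 0 were called (0%), among them 0 of the 10 members. Without adjustment 928 genes (4.87%) had a p under 0.05, 2.48% lower and 2.39% higher, and DESeq2 called 10 genes after adjustment. Of the members 1, Cacna1h, had an unadjusted p under 0.05 by edgeR. Fold changes were below 0 for 7 members against 49.9% of all genes, with a median of -0.04 for the members and 2e-04 for all genes on the log2 scale. Cacna1e was at 329, 276, 324 and 279 CPM in KD replicates 1 to 4, which overlaps the AL range of 291 to 344 CPM. Its log2 fold change was -0.06 with a 95% confidence interval of -0.19 to 0.08, and the change on DR lies outside this interval. Cacna1i was at 145, 145, 157 and 146 CPM in KD replicates 1 to 4, a log2 fold change of 0.001 (-0.10 to 0.10). Without AL replicate 3 the log2 fold changes on KD against AL were -0.01 for Cacna1e, 0.05 for Cacna1i, -0.03 for Cacna1a, 0.05 for Cacna1b and 0.02 for Cacna1c, and without KD replicate 3 they were -0.09 for Cacna1e and -0.03 for Cacna1i.

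Among the members, Cacna1h had the largest difference between KD and AL. It was at 2.96, 3.12, 3.44 and 3.42 CPM in AL replicates 1 to 4 and at 2.78, 2.46, 2.33 and 2.78 CPM in KD replicates 1 to 4. Every KD mouse lay below every AL mouse, as was so for 1.55% of all genes, while 1.41% had every KD mouse above every AL mouse. The log2 fold change was -0.32 (95% confidence interval -0.58 to -0.06) with an unadjusted p of 0.0209 and an adjusted p of 0.981 by edgeR. For the other 9 members the log2 fold changes lay between -0.09 (Cacna1d) and 0.01 (Cacna1b), and no interval reached below -0.21 or above 0.10.

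The direct comparison of KD with DR shows the same separation from the other side, with the same DR mice, so it is not independent of DR against AL. Of 19087 genes tested by edgeR 942 were called (4.94%), 2.43% of all genes higher and 2.51% lower on KD. Of the 10 members 2 were called, Cacna1e and Cacna1i, both higher on KD. Without adjustment 3 members had a p under 0.05, the third being Cacna2d2, all higher, against 18.7% of all genes, of which 9.29% higher and 9.39% lower. On KD against DR fold changes were below 0 for 2 members, Cacna1a and Cacna1h, against 50.8% of all genes. The median of the members was 0.09 on the log2 scale, and that of all genes -0.0024.

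Cacna1e was 1.37-fold higher on KD than on DR (log2 fold change 0.45, standard error 0.058, 95% confidence interval 0.33 to 0.58, adjusted p = 0.000391 by edgeR). All 4 KD mice, at 276 to 329 CPM, lay above all 4 DR mice, at 211 to 227 CPM. KD replicates 1 and 3, at 329 and 324 CPM, lay above KD replicates 2 and 4, at 276 and 279 CPM, and the SD of the KD mice was 28.6 CPM. Cacna1i was 1.18-fold higher (log2 fold change 0.24, standard error 0.047, adjusted p = 0.00721 by edgeR), with 145 to 157 CPM on KD and 119 to 135 CPM on DR. Both calls were kept in 8 of 8 fits with a mouse left out. Without DR replicate 1 the log2 fold changes were 0.46 for Cacna1e and 0.22 for Cacna1i, and without KD replicate 3 they were 0.42 and 0.22, the last with an adjusted p of 0.0343 by edgeR. Of all genes, 6.03% had every KD mouse above every DR mouse and 5.79% had every KD mouse below.

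The other members did not pass between KD and DR. Cacna2d2 came closest at a log2 fold change of 0.11 (95% confidence interval 0.01 to 0.21, adjusted p = 0.195 by edgeR). Cacna1g was at 429, 468, 421 and 440 CPM in KD replicates 1 to 4, a log2 fold change of 0.11 (-0.01 to 0.22, adjusted p = 0.308). Cacna1a was at 688, 755, 707 and 704 CPM in KD replicates 1 to 4, within the DR range, with a log2 fold change of -0.07 (-0.19 to 0.05).

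**Figure D3:**
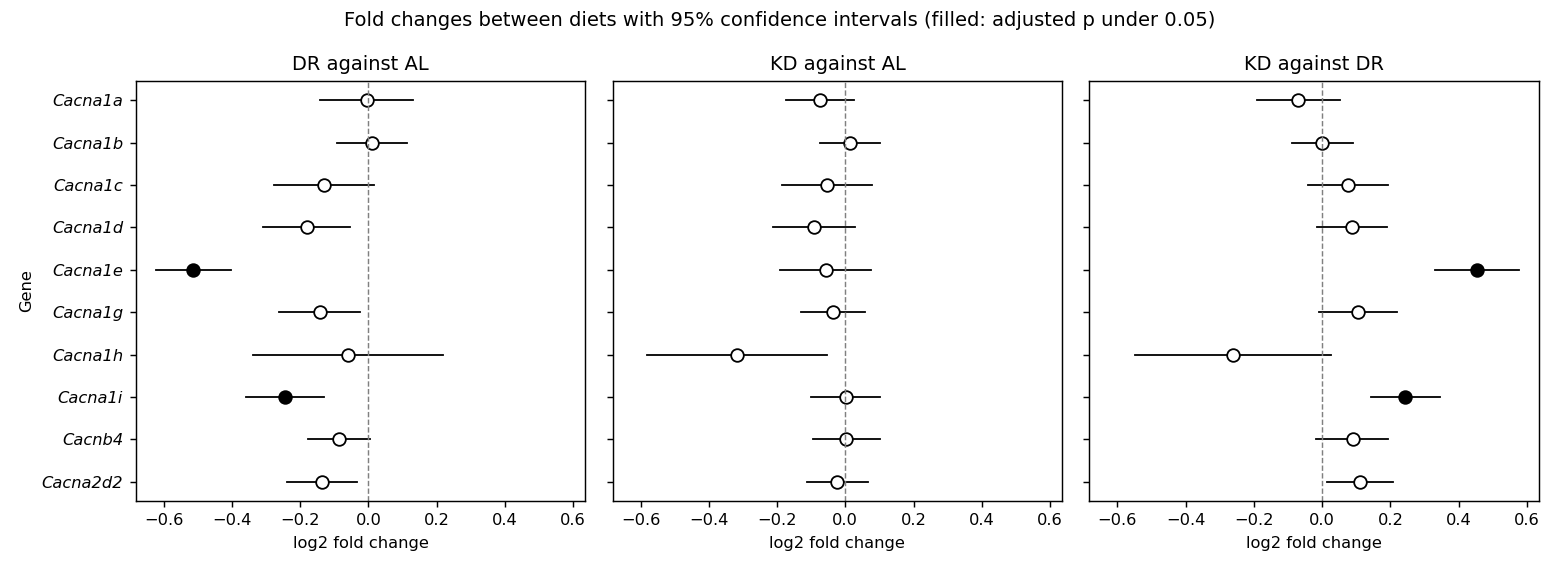
Log2 fold changes of the 10 members in the 3 comparisons of diets, with 95% confidence intervals that are not adjusted for the number of genes. Filled points have an adjusted p under 0.05 by edgeR, which are Cacna1e and Cacna1i in both comparisons with DR and 0 members in KD against AL.

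The balance between channel types was described from the levels per kilobase of the 8 pore genes. Their sum was 163 ± 8.63 CPM per kilobase on AL, 151 ± 9.39 on DR and 157 ± 3.75 on KD (SD, n = 4 each). The sum of the DR mice ran from 137 to 157, where DR replicate 1 was the lowest of all 12 mice, and that of the AL mice from 157 to 175. The P/Q-type gene held 40.4 ± 0.624% of this sum on AL, 43.4 ± 1.42% on DR and 39.7 ± 0.685% on KD, and the lowest DR mouse, at 41.9%, lay above the highest AL mouse, at 41.1%. The R-type gene held 7.65 ± 0.334% on AL, 5.80 ± 0.461% on DR and 7.62 ± 0.831% on KD. The 3 T-type genes together held 36.8 ± 1.21% on AL, 35.3 ± 1.07% on DR and 37.3 ± 0.459% on KD, nearly all of it from Cacna1g and Cacna1i. The L-type genes held 8.46 ± 0.381% on AL, 8.23 ± 0.126% on DR and 8.36 ± 0.226% on KD, and the N-type gene 6.68 ± 0.0709%, 7.26 ± 0.279% and 6.98 ± 0.0849%. Shares sum to a whole, so they do not vary independently.

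**Figure D4:**
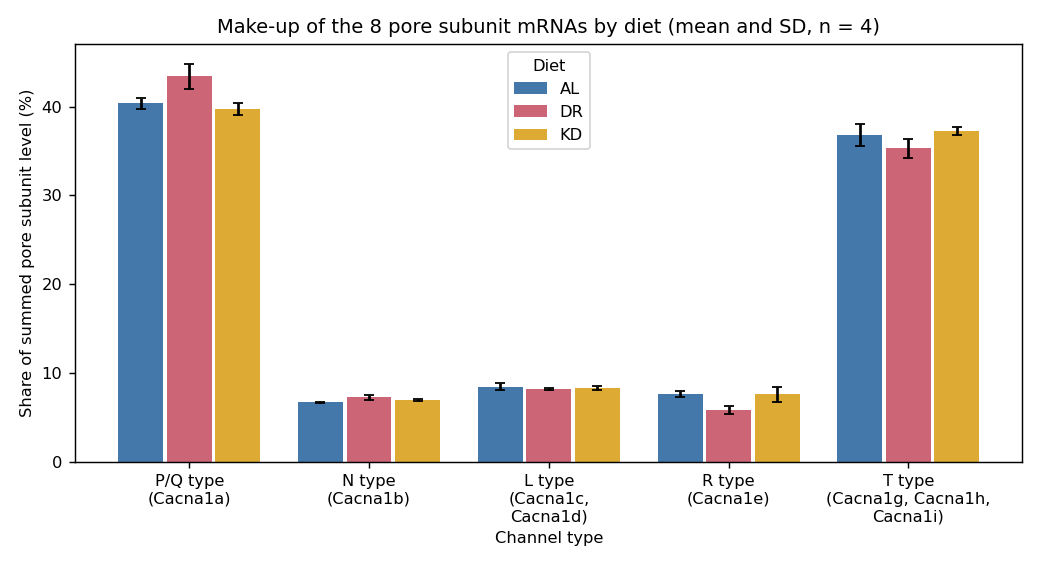
Share of each channel type in the summed level per kilobase of the 8 pore genes, in percent, as the mean of 4 mice per diet with SD. The R-type share is 5.80% on DR against 7.65% on AL and 7.62% on KD, and the P/Q-type share is 43.4%, 40.4% and 39.7%.

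Ratios within a library do not depend on scaling between libraries. The log2 ratio of Cacna1e to Cacna1a per kilobase was -2.40 ± 0.052 on AL, -2.91 ± 0.149 on DR and -2.39 ± 0.182 on KD (SD, n = 4 each). The difference of -0.50 between DR and AL and that of 0.52 between KD and DR each had a p of 0.0286 in a two-sided exact permutation test, the smallest that 4 mice against 4 allow, and an adjusted p of 0.129 over 9 ratio tests. The ratios of Cacna1g to Cacna1i and of Cacna1c to Cacna1d differed between diets by at most 0.14, with exact permutation p from 0.143 to 0.886.

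Other subunits of the family were mostly at lower levels. Of 8 further pore, beta and alpha-2-delta genes, the alpha-2-delta gene Cacna2d1 had the highest CPM, without regard to length (78.1 ± 3.57 CPM, SD, n = 12). Next came the beta subunit gene Cacnb2 (45.1 ± 2.56 CPM). Per kilobase Cacnb3, another beta subunit gene, was highest of the 8 at 9.88 ± 0.685, above Cacna2d1 at 6.29 ± 0.288 CPM per kilobase. Of the 8, 0 were called by edgeR on DR against AL, beside 3.06% of all genes, with 2 lower and 1 higher at an unadjusted p under 0.05, against 18% of all genes, and 0 were called on KD against AL, beside 0% of all genes, with 0 at that level, beside 4.87%. The higher one was Cacna1s, the pore gene of skeletal muscle, with a log2 fold change of 0.58 (adjusted p = 0.119 by edgeR). The median log2 fold change of the 8 was -0.09 on DR against AL, -0.05 on KD against AL and 0.03 on KD against DR. On KD against DR, 1 was called, Cacna1s, where 4.94% of all genes were. It was at 2.35, 3.68, 3.14 and 2.09 CPM in DR replicates 1 to 4 and at 1.69, 1.31, 1.51 and 2.08 CPM in KD replicates 1 to 4. The groups just failed to overlap, with 2.09 CPM in the lowest DR mouse and 2.08 CPM in the highest KD mouse. Its log2 fold change of -0.76 (adjusted p = 0.0348 by edgeR) was called in 3 of 8 fits with a mouse left out. Cacnb2 had every DR mouse (40.0 to 43.9 CPM) below every AL mouse (44.9 to 47.3 CPM) and every KD mouse, as 5.64% and 6.03% of all genes had in these comparisons, with adjusted p of 0.154 against AL and 0.0952 against KD by edgeR.

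The gamma family is named for a channel subunit of muscle, but in neurons several members are auxiliary proteins of AMPA receptors. Of its 8 genes 6 were tested, with a median log2 fold change of -0.08 on DR against AL, -0.01 on KD against AL and 0.07 on KD against DR. Cacng1 and Cacng6 had at most 2 reads in any library and were not tested. Cacng2 (208 ± 4.71 CPM) and Cacng7 (172 ± 9.38 CPM, SD, n = 12) had the highest CPM and had log2 fold changes on DR of -0.02 and -0.06 that did not pass. Of the 6 genes tested 1, Cacng5, was called lower on DR than AL, beside 1.74% of all genes, and 1, again Cacng5, higher on KD than DR, beside 2.43%. It was at 38.1, 35.9, 39.6 and 35.0 CPM in AL replicates 1 to 4, at 28.4, 28.2, 29.0 and 31.2 CPM in DR replicates 1 to 4 and at 36.4, 36.6, 35.2 and 39.4 CPM in KD replicates 1 to 4. As for Cacna1e, all DR mice were the lowest. The log2 fold changes were -0.35 for DR against AL (adjusted p = 0.00573 by edgeR) and 0.34 for KD against DR (adjusted p = 0.00201), both called in 8 of 8 fits with a mouse left out.

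Genes of proteins that act on these channels were counted in the same way. Of 13 cytosolic regulators, such as calmodulins, calmodulin-dependent kinase II and the RGK and STAC proteins, 0 were called by edgeR on DR or KD against AL, beside 3.06% and 0% of all genes. On DR 3 had an unadjusted p under 0.05, all lower, beside 18% of all genes, and on KD 0, beside 4.87%. Their median log2 fold changes were -0.10 and -0.01. Calm3 (948 ± 28.8 CPM, SD, n = 12), a calmodulin gene among those with the highest CPM, was not called in any comparison. Rem2, an RGK protein that inhibits high-voltage-activated channels, was called higher on KD against DR (log2 fold change 0.37, adjusted p = 0.0332 by edgeR), in 2 of 8 fits with a mouse left out. Of 12 presynaptic partners of P/Q- and N-type channels, 0 were called by edgeR against AL, where 1 had an unadjusted p under 0.05 on DR, beside 18% of all genes, and 0 on KD, beside 4.87%, with medians of -0.05 and 0.02. Among them 1, the active zone protein gene Pclo, was called higher on KD against DR (0.19, adjusted p = 0.0442 by edgeR), which makes 1 of 12 here and 1 of 13 for the regulators, beside 2.43% of all genes called higher. Its call did not hold in any of 8 fits that each left out 1 mouse (adjusted p from 0.0527 to 0.154). Snap25 (3310 ± 139 CPM, SD, n = 12), the most abundant of them and a part of the release machinery, was not called in any comparison.

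The genes with the pattern most like that of the called members were sought among 10074 others with a mean of at least 10 CPM, by the Pearson r of log2 CPM over the 12 libraries. For Cacna1e these were D10Wsu102e (r = 0.962), Shisa9 (0.955), an auxiliary protein of AMPA receptors, and Luzp2 (0.95). With the mean of each diet removed, r was 0.678, 0.558 and 0.691, so a part of this likeness is the shared difference between diets. For Cacna1i they were Tnc (r = 0.939), which encodes the matrix protein tenascin C, Pdcd6ip (0.937) and Sh3pxd2b (0.931), with 0.794, 0.738 and 0.758 after the means were removed. The points share libraries, their depth and scaling, and the genes were the highest of many, so these values are a description.

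Markers of several cell types moved with diet beside the channel genes. Marker lists are summed in CPM, and the marker with the highest CPM is named for each, which by its length need not be the highest per kilobase. Of 8 Purkinje cell markers, with Itpr1 the highest in CPM (226 per kilobase, below Car8 at 284), 2 were called lower on DR than AL, Car8 among them, and 0 higher, beside 1.74% and 1.32% of all genes. Their summed level was 8778, 8343, 8254 and 8365 CPM in AL replicates 1 to 4, 7032, 6908, 7401 and 7983 CPM in DR replicates 1 to 4 and 8262, 8362, 8132 and 8301 CPM in KD replicates 1 to 4. In this sum every DR mouse was thus below every AL and KD mouse, as for Cacna1e and Cacna1i, while for Cacna1a this was not so. Itpr1 alone averaged 4390 of the summed 8430 CPM on AL and 3770 of 7330 CPM on DR, so it weighs most in the sum. Taken singly, 5 of the 8 markers had every DR mouse below every AL mouse, beside 5.64% of all genes. Only 3 of the 8 had every KD mouse above every DR mouse, beside 6.03%. For Car8, which binds the IP3 receptor, the log2 fold change was -0.24 (adjusted p = 0.0327 by edgeR, called in 3 of 8 fits with a mouse left out). Itpr1, the IP3 receptor itself, was at -0.22 with an adjusted p of 0.0869, and 8 of 8 markers were below 0, beside 49% of all genes. Of 6 Bergmann glia and astrocyte markers, with Slc1a3 the highest, 2 were called lower on DR, beside 1.74% of all genes, Hopx and Aqp4 (log2 fold changes -0.47 and -0.52, each called in 8 of 8 fits with a mouse left out). Their sum was 1805 to 1948 CPM on AL, 1605 to 1665 CPM on DR and 1766 to 1829 CPM on KD. The part of these markers in the fall of Cacna1e and Cacna1i was not tested.

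Granule cells are the most numerous neurons of this tissue. Of their 8 markers, with Cbln3 the highest in CPM (323 per kilobase, below Gabra6 at 354), 0 were called by edgeR on DR against AL, beside 3.06% of all genes, and 2 had an unadjusted p under 0.05, 1 lower and 1 higher, beside 18% of all genes. Their sum was 5990 ± 243 CPM on AL, 6100 ± 57.8 on DR and 6090 ± 127 on KD (SD, n = 4 each), which overlapped. On KD against DR, Cbln3 was called lower and Fat2 higher, beside 2.51% and 2.43% of all genes, in 5 and 4 of 8 fits with a mouse left out. Of 7 interneuron and Golgi cell markers 1 was called, the Golgi cell gene Lgi2, higher on DR than AL (log2 fold change 0.37, adjusted p = 0.000507 by edgeR) and lower on KD than DR, beside 1.32% and 2.51% of all genes. Of 5 oligodendrocyte markers, with Mbp the highest, 1 was called lower on DR than AL, beside 1.74% of all genes, and 2 were called higher on KD than DR, beside 2.43%, among them Mag, in 3 of 8 fits with a mouse left out. Among microglial markers Csf1r was the highest in CPM but C1qa per kilobase (8.06 against 4.05), and among endothelial markers Flt1 was the highest in CPM but Cldn5 per kilobase (10.9 against 5.07). Of these 5 microglial and 4 endothelial markers, 0 were called in any comparison by edgeR. Of all genes 3.06% were called on DR against AL, 0% on KD against AL and 4.94% on KD against DR. On DR against AL, 1 microglial marker (lower) and 1 endothelial marker (higher) had an unadjusted p under 0.05 by edgeR, beside 18% of all genes. On KD against AL this was so for 1 microglial marker (higher) and 0 endothelial markers, beside 4.87% of all genes, and on KD against DR for 3 microglial and 2 endothelial markers, all higher, beside 9.29% of all genes. The 4 choroid plexus markers summed to 1.47 to 2.57 CPM on AL, 1.75 to 2.07 CPM on DR and 1.14 to 9.92 CPM on KD. Most of this range came from Ttr, at 7.95 CPM in KD replicate 1 and 0.371 CPM in KD replicate 2, which was called higher on KD than DR but in 1 of 8 fits with a mouse left out.

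**Figure D5:**
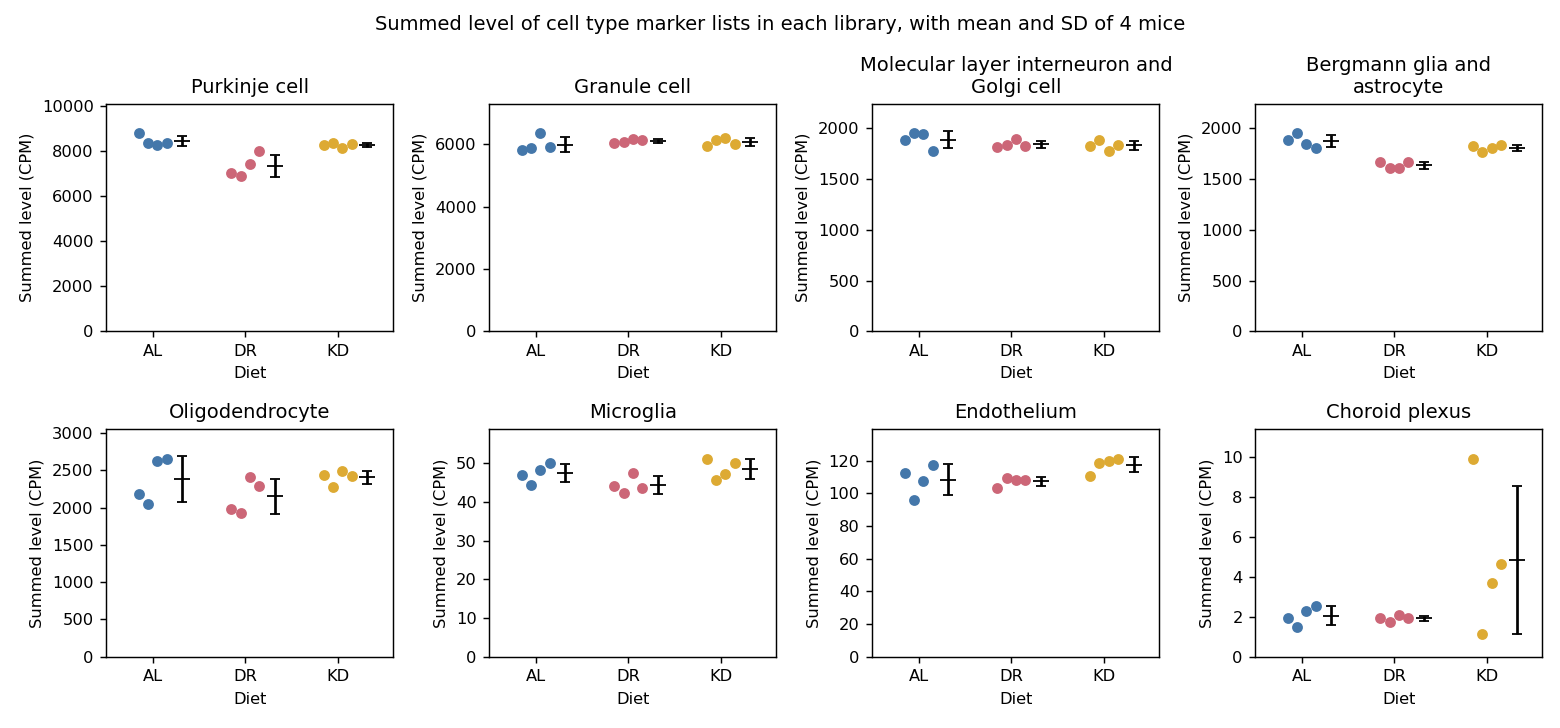
Summed level in CPM of 8 lists of cell type markers in each library, with the mean and SD of the 4 mice of each diet, every axis starting at 0. The DR points of the Purkinje cell list (6908 to 7983 CPM) and of the Bergmann glia and astrocyte list (1605 to 1665 CPM) lie below all AL points, while those of the granule cell list overlap AL.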

How the data were processed

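Per the submitters' processing notes, reads were trimmed with Trimmomatic 0.39, aligned with STAR 2.7.0f to GRCm38.p6 and counted per gene with featureCounts of Subread 1.6.4. The authors deposited these counts without normalization, with a counted length per gene. Strand and multi-mapping settings were not given in the sources used here. The 12 libraries were grouped by the labelled diet and numbered in accession order. Of the 54752 genes, 54723 were matched by ID to GENCODE symbols. No 2 mice of a diet had counts that agreed within sampling noise (18 pairs, chi-square divided by genes from 4.95 to 11.6).

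For every comparison the 8 libraries concerned were analysed with edgeR 4.0.16 under R 4.3.3, without covariates. Genes were filtered by filterByExpr (minimum count 10, minimum total 15), TMM factors were computed, and p-values of the quasi-likelihood test were adjusted by the Benjamini-Hochberg method, with a threshold of 0.05. Standard errors follow from the F statistic. DESeq2 1.42.0, other scalings and filters, 1 fit of all 12 libraries and leaving out each mouse were alternatives. Labels do not say whether mice shared a litter or cage.

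Named were the 10 members, genes of the lists that were called or among the 2 with the highest CPM, and the 3 genes most like each called member; some genes of the lists are counted but not reported here by name. Cacnb3, Gabra6, C1qa and Cldn5 were added after their levels were seen. Members and lists were chosen with earlier results of these data known.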

Additional observations from a re-analysis of the deposited data

Results flagged for a closer look

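Dixon's test for an outlying mouse was applied to 30 groups, the 10 members on each of 3 diets, where chance flags about 1 in 20 groups, and it marked 6. AL replicate 3 stood above the other AL mice for Cacna1a, at 824 CPM against 721 to 732 CPM. It did so too for Cacna1b, at 116 CPM against 105 to 106 CPM, and for Cacna1c, at 198 CPM against 160 to 165 CPM. DR replicate 1 was low for Cacna1d, at 59.0 CPM against 64.8 to 65.6 CPM, and high for Cacnb4, at 335 CPM against 314 to 318 CPM. KD replicate 3 was high for Cacna1i, at 157 CPM against 145 to 146 CPM. The 6 marks fall on 3 libraries, and groups measured in the same libraries are not independent. Cacna1e was marked on none of the diets.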

How the results depend on the processing

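Cacna1e kept its direction and its call in every alternative fit of DR against AL and of KD against DR, with log2 fold changes from -0.54 to -0.47 and from 0.41 to 0.50. Cacna1i kept its call under the 6 other scalings, filters and tests and lost it against AL without AL replicate 1, DR replicate 1, DR replicate 3 or DR replicate 4. Cacna1d passed on DR against AL without the filter on low counts (adjusted p = 0.0316). Genes called on DR against AL numbered 583, 1258 without the filter, 1012 with DESeq2, and 235 (without DR replicate 3) to 712 (without AL replicate 3) with a mouse left out, with 1 to 2 members. On KD against AL they numbered 0, 118 without the filter, 10 with DESeq2, and 0 to 6 with a mouse left out. On KD against DR they numbered 942, 1503 without the filter, and 467 to 946 with a mouse left out. Members near 0 changed sign. On DR against AL, Cacna1a was at 0.016 by library size and 0.003 among genes over 10 CPM, and with a mouse left out at -0.045 to 0.057, and Cacna1b at -0.009 to 0.046. On KD against AL, Cacna1i was at -0.001 in the fit of 12 libraries, and with a mouse left out at -0.026 to 0.047, Cacnb4 at -0.044 to 0.031, Cacna1b at -0.001 to 0.050 and Cacna1c at -0.086 to 0.024. On KD against DR, Cacna1b was at -0.019 by library size, -0.005 among genes over 10 CPM and -0.024 to 0.020 with a mouse left out. The cause of these changes was not tested. Cacna1h was not tested among genes over 10 CPM. No paired analysis was possible because the labels give no replicate numbers shared between diets.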
